A study of Rattus norvegicus with 6 samples.

Results

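The 10 genes described here mark lymphocytes, and they were measured in rat sciatic nerve without and after a crush: Cd3d, Cd3e, Cd3g, Cd247, Cd4, Cd8a, Cd79b, Nkg7, Gzmb and Prf1. They were chosen by gene symbol from the 30957 genes of the mRNA table, and all 10 symbols were found, on 11 rows because Gzmb stood on 2. Of the 10, 8 had enough counts for a test, and Cd79b and Gzmb did not. The nerves came from 1-month-old Sprague-Dawley rats in 3 groups of 2 rats, named control, D4 and D7. In D4 and D7 the left sciatic nerve had been clamped with forceps 4 or 7 days earlier. The control rats, labelled normal controls, had the same operation without the clamp according to the study's methods. No rat carried a transgene or a deletion. Each library (a or b) was made from the nerve tissue of 1 rat, so a count came from all cells of the nerve, and more cells of a type could not be told apart from more RNA per cell.

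T cells recognise antigen through a receptor whose signal is carried by the CD3 chains. Cd3d, Cd3e and Cd3g encode the delta, epsilon and gamma chains and Cd247 the zeta chain, and the chains are assembled into 1 complex at the cell surface. CD4 and CD8 are the coreceptors of helper and cytotoxic T cells. In the rat CD4 is also carried by monocytes and macrophages, and the CD8 alpha chain, encoded by Cd8a, is also found on natural killer (NK) cells. Cd79b encodes a signalling chain of the B cell receptor. Nkg7, Gzmb (granzyme B) and Prf1 (perforin) encode proteins of the cytotoxic granules of NK cells and cytotoxic T cells. In a crushed nerve the part beyond the injury degenerates, and blood leukocytes, with macrophages in the majority, enter it.

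The upstream sequences of Cd3d, Cd3g and Cd3e are shown because these neighbouring genes encode chains of 1 complex but differed in direction at D4. From D4 to D7 all 3 genes rose in the fit, and only Cd3g was called. In the files' coordinates (Rnor_6.0) they lay on chromosome 8, Cd3g at chr8:49274960-49280901, Cd3d at chr8:49282460-49287110 and Cd3e at chr8:49297608-49308806. The whole cluster spanned 33847 bp, with 1558 bp between Cd3g and Cd3d and 10497 bp between Cd3d and Cd3e. The sequences are the 250 bases before each RefSeq start on the GRCr8 build, 5′ to 3′ on the gene's strand, and the coordinates beside them are of that build. Capitals mark GGAAG, the core letters bound by ETS factors, on either strand, and CAGCTG, an E-box.
Cd3d, 250 bases, chr8:54185269-54185518 (+ strand): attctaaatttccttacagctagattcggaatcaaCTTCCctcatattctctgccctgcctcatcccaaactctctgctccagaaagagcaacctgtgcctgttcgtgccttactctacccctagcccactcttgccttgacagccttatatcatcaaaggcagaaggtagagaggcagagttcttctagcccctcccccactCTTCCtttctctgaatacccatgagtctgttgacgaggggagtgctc
Cd3g, 250 bases, chr8:54183919-54184168 (- strand): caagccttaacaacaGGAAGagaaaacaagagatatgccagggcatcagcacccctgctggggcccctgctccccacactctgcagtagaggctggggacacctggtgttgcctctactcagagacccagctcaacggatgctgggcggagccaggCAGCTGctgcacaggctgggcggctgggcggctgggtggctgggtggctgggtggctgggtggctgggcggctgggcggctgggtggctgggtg
Cd3e, 250 bases, chr8:54211771-54212020 (- strand): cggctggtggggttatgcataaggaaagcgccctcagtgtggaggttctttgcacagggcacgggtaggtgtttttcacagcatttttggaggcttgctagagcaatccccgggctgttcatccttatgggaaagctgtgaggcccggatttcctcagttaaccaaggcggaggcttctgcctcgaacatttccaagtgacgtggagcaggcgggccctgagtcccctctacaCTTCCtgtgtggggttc
Cd3d and Cd3g started 1601 bp apart on opposite strands and ran away from each other. Cd3d held GGAAG at 2 places and Cd3g and Cd3e at 1 place each, and only Cd3g of these 3 held CAGCTG. The table of upstream sequences had 8 of the 10 members, all but Cd4 and Cd79b. GGAAG was found on either strand in 7 of the 8, the exception being Cd8a, and in 63.3% of all 33469 windows of the same length. TGTGGT, the letters bound by RUNX factors, was found in Nkg7, Gzmb and Prf1 against 14.5% of all windows, CAGCTG in Cd3g and Prf1 against 12.0%, and TATAAA in Gzmb against 12.9%. AGATAA, bound by GATA factors, was in none of the 8 and in 10.3% of all windows. None of these motifs overlapped another. A match of letters is a description and no evidence of binding.

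The libraries held 18727255 to 25350886 fragments over all genes. Most members were at the low end of this depth: beside Cd4, the other 9 genes together had 41 and 60 counts in control a and b, 226 and 208 at D4, and 480 and 531 at D7. Scaled for depth, these 9 summed to 2.11 and 3.62 CPM (TMM-scaled counts, set to a common library size) in the controls, 7.68 to 9.28 at D4 and 22.5 to 26.3 at D7. Their summed level thus differed between all 3 groups without overlap. Single genes weighed heavily in this sum. Cd8a gave 99 and 96 of the counts at D4 and 237 and 260 at D7, and Cd3g 21 and 22 in the controls. Cd4 alone gave 75.9% to 93.8% of the counts of the 10 genes in each library. Changes were tested with edgeR's quasi-likelihood test over the 15195 genes that passed a filter on low counts. A gene was called where the Benjamini-Hochberg adjusted p was under 0.05 and the change at least 2-fold, and changes are given as log2 fold changes ± standard error with 2 rats per group.

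**Figure D1:**
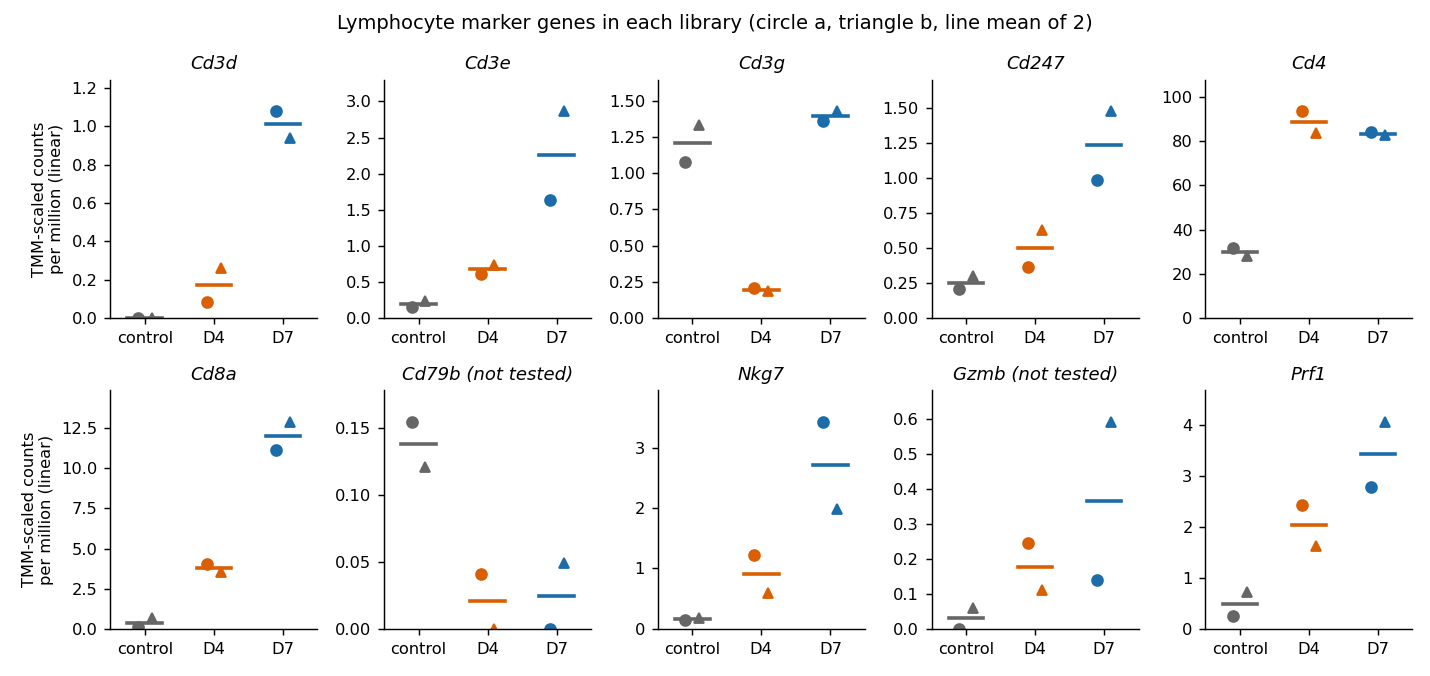
Level of each of the 10 genes in each library, in TMM-scaled CPM on linear axes from 0 that differ between panels; circles are library a, triangles library b and the line is the mean of the 2. Most genes stepped up from control through D4 to D7, Cd4 reached its level at D4, Cd3g was lowest at D4, and Cd79b and Gzmb had at most 3 and 12 counts in a library.

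Against the control, 6 of the 10 members were called at D4. Cd3e, Cd4, Cd8a, Nkg7 and Prf1 rose and Cd3g fell. Among all genes tested 11.2% were called higher and 10.7% lower at D4. At D7, 7 members were called and all 7 rose: Cd3d, Cd3e, Cd247, Cd4, Cd8a, Nkg7 and Prf1, where 9.83% of all genes were called higher and 9.02% lower. Between D4 and D7, 1 member was called higher, Cd3g, against 1.68% of all genes. Cd3d and Cd247 passed the filter on low counts only through their D7 libraries, the group where they were highest, so their D7 calls add no support to the count.

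**Figure D2:**
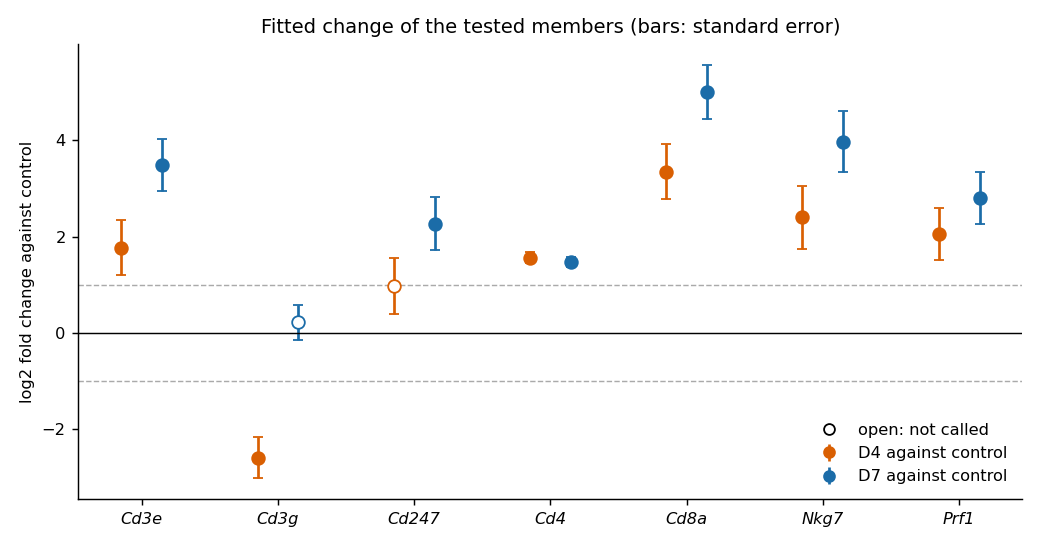
Log2 fold change against control of the 7 members that were tested and had counts in the controls, at D4 and D7; bars are the standard error, filled points were called and dashed lines mark 2-fold. Cd3g was at -2.59 at D4 and 0.22 at D7, while each other point lay above 0.

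Of the T cell receptor complex, Cd3e had 3 and 4 counts in the controls, 15 and 20 at D4 and 35 and 58 at D7. The 3 groups did not overlap. It rose by 1.77 ± 0.57 at D4 (adjusted p = 0.0467) and by 3.49 ± 0.54 at D7 (adjusted p = 0.0046). The D4 call was at the threshold: it was lost without any one of control a, control b, D4 a, D4 b or D7 b (adjusted p from 0.0584 to 0.177), while the D7 call was kept without each library. From D4 to D7 the difference was 1.72 ± 0.44 and was not called (adjusted p = 0.0824).

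Cd3d was listed at 0 in both controls, at 2 and 7 counts at D4 and at 23 and 19 at D7. Only the D7 libraries were well above 0. Set against a floor of 3 counts in each control library, it was at least 6.02-fold higher at D7, where it was called (adjusted p = 0.0097), and at least 1.02-fold higher at D4, where it was not (adjusted p = 0.0583). The difference from D4 to D7 was 2.5 ± 0.66 (adjusted p = 0.1). Cd247, on chr13:83996080-84071400, had 4 and 5 counts in the controls, 9 and 17 at D4 and 21 and 30 at D7. Its groups did not overlap, but only D7 was called, at 2.27 ± 0.55 (adjusted p = 0.0219) against 0.98 ± 0.58 at D4 (adjusted p = 0.213). Without control a, control b or D7 b the D7 call of Cd247 was lost (adjusted p = 0.103, 0.0649 and 0.0969). From D4 to D7 Cd247 differed by 1.29 ± 0.48 (adjusted p = 0.172).

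Cd3g went the other way at D4. It had 21 and 22 counts in the controls, 5 and 5 at D4 and 29 and 29 at D7. The D4 pair was the lowest, and the D7 pair was a little above the controls. Cd3g fell by 2.59 ± 0.43 at D4 (adjusted p = 0.00468), a call kept without each library in turn (adjusted p from 0.0126 to 0.0458). At D7 it differed from the control by 0.22 ± 0.36 (adjusted p = 0.662). From D4 to D7 it rose by 2.81 ± 0.42 (adjusted p = 0.0295), but this call was lost without any one of D4 a, D4 b, D7 a or D7 b (adjusted p from 0.0657 to 0.221). No other gene of the mRNA table overlapped it. The Schwann cell and myelin genes were also called lower at D4, 7 of the 10 measured, with a summed level of 72300 to 106000 CPM in the controls, 6030 to 6740 at D4 and 13500 to 20500 at D7, and their part in the course of Cd3g was not tested.

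Per length, the chains were unequal in the controls. Cd3g was at 1.51 and 1.90 FPKM (fragment counts scaled for gene length and for depth) in control a and b. In the same libraries Cd3e was at 0.0592 and 0.0946 FPKM and Cd247 at 0.104 and 0.156 FPKM, and Cd3d was listed at 0. The FPKM ratio of Cd3g to Cd3e was therefore 25.6 and 20.1 in the controls. It was 1.22 and 0.913 at D4 and 3.03 and 1.83 at D7. At D4 the 4 chains stood between 0.121 and 0.393 FPKM, and at D7 between 0.615 and 2.51 FPKM.

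**Figure D3:**
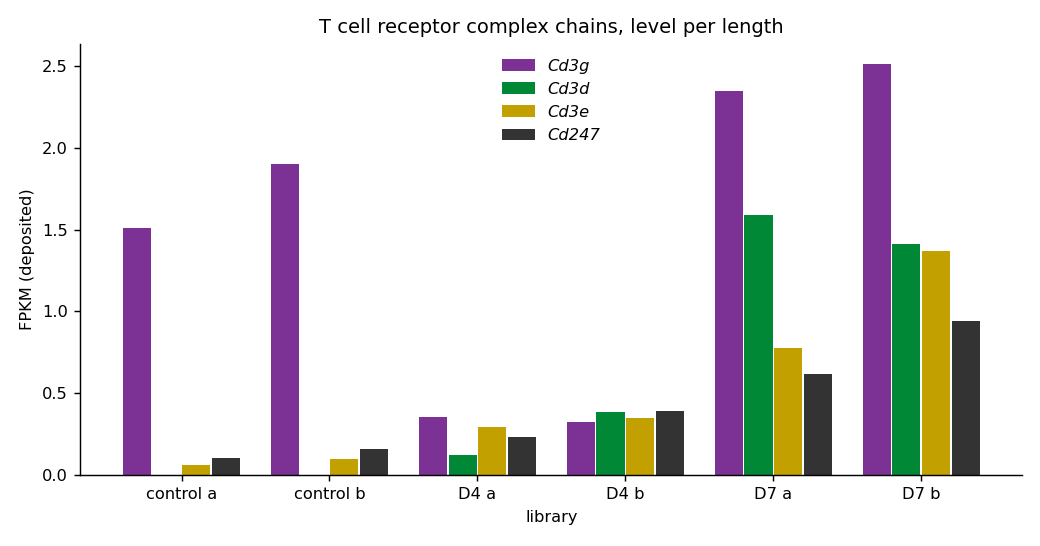
FPKM, on a linear axis from 0, of the 4 chains of the T cell receptor complex in each of the 6 libraries. In the controls Cd3g stood at 1.51 and 1.90 FPKM with the other 3 chains at or below 0.156 FPKM, and at D7 all 4 chains were above 0.6 FPKM.

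The coreceptor genes lay on chromosome 4, Cd8a at chr4:99239115-99243351 and Cd4 at chr4:157383052-157408176. Cd8a had 2 and 11 counts in the controls, 99 and 96 at D4 and 237 and 260 at D7. The 3 groups were far apart. It rose by 3.35 ± 0.57 at D4 (adjusted p = 0.00512) and by 5.01 ± 0.56 at D7 (adjusted p = 0.00154). The size depended on the unequal controls: at D4 it was 2.51 without control a and 5.13 without control b, and at D7 4.16 and 6.79, called each time. The difference from D4 to D7 was 1.66 ± 0.43 and was not called (adjusted p = 0.0832), although it was called without either control library (adjusted p = 0.0222 and 0.0214), with DESeq2 (adjusted p = 0.00129) and in a fit of D4 and D7 alone (adjusted p = 0.0178). Over the alternatives to that difference the adjusted p ran from 0.000127 to 0.354.

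Cd8b, the gene of the beta chain that pairs with CD8 alpha on T cells, had 6 and 0 counts in the controls, 73 and 37 at D4 and 128 and 116 at D7. It rose by 3.68 ± 0.86 at D4 (adjusted p = 0.0163) and by 5.11 ± 0.84 at D7 (adjusted p = 0.00574). The FPKM ratio of Cd8a to Cd8b was 0.353 in control a and could not be formed in control b, where Cd8b was at 0. It was 1.44 and 2.75 at D4 and 1.96 and 2.37 at D7. By FPKM both CD8 genes stood above Cd3d, Cd3e, Cd3g and Cd247 in each crushed library. At D7 the means were 9.27 for Cd8a and 4.28 for Cd8b, against 0.777 (Cd247) to 2.43 (Cd3g) for the CD3 chains. At D4 they were 2.92 and 1.58, against 0.252 (Cd3d) to 0.337 (Cd3g). In the controls Cd3g (1.71) was above Cd8a (0.243) and Cd8b (0.0908). The cells that gave the Cd8a and Cd8b RNA were not tested.

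Cd4 had 616 and 470 counts in the controls, 2284 and 2268 at D4 and 1791 and 1674 at D7. Both crushed groups were above the controls and close to each other. Cd4 rose by 1.56 ± 0.11 at D4 (adjusted p = 0.000239) and by 1.47 ± 0.11 at D7 (adjusted p = 0.000466), and D7 differed from D4 by -0.09 ± 0.10 (adjusted p = 0.647). It was the member with the most counts and the smallest standard errors, and both calls were kept under every alternative. The macrophage genes moved beside it. All 16 of 16 were called higher at D4 and 14 at D7, with medians of 2.22 and 1.72, and their summed level was 645 to 727 CPM in the controls, 2880 to 2940 at D4 and 2110 to 2400 at D7. The FPKM ratio of Cd4 to Cd3e was 265 and 151 in the controls, 196 and 146 at D4 and 65.9 and 37.2 at D7, and the part of macrophages in the Cd4 level was not tested.

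Among the cytotoxic granule genes, Nkg7, at chr1:98492828-98493978, had 3 and 3 counts in the controls, 30 and 16 at D4 and 73 and 40 at D7. The groups did not overlap, and library a was the higher of the pair in both crushed groups. Nkg7 rose by 2.40 ± 0.66 at D4 (adjusted p = 0.0282) and by 3.97 ± 0.63 at D7 (adjusted p = 0.00509). The D4 call was lost without control a, control b or D4 a (adjusted p = 0.109, 0.0877 and 0.126), and the change was 1.79 without D4 a. D7 differed from D4 by 1.57 ± 0.49 (adjusted p = 0.122).

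Prf1, at chr20:30915213-30921382, had 5 and 12 counts in the controls, 59 and 44 at D4 and 59 and 82 at D7. Both crushed groups stood above the controls, and D4 and D7 were close, at 1.63 and 2.42 CPM and at 2.77 and 4.06 CPM. Prf1 rose by 2.06 ± 0.54 at D4 (adjusted p = 0.0249) and by 2.81 ± 0.54 at D7 (adjusted p = 0.00996). At D4 the call was lost without control a, D4 a or D4 b (adjusted p = 0.0825, 0.121 and 0.0593), and at D7 the change was 2.23 without control a and 3.70 without control b. The difference of 0.75 ± 0.46 between D4 and D7 was not called (adjusted p = 0.366).

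Gzmb, at chr15:35413793-35417316, had 0 and 1 counts in the controls, 6 and 3 at D4 and 3 and 12 at D7, too few for the test. D4 and D7 overlapped. The ratio of its scaled counts to the control was 6.30 at D4, with a 95% counting interval from 0.873 to 276, and 13.0 at D7, with an interval from 2.00 to 548. These intervals cover counting error only. The other row named Gzmb, at chr15:36327721-36472346, was at 0 in all 6 libraries, and its span held Gzmc, also at 0. The granzymes form a family of close copies, so the split of reads among them was uncertain.

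Cd79b, at chr10:94497448-94500591, was the member with the fewest counts: 3 and 2 in the controls, 1 and 0 at D4 and 0 and 1 at D7. All were at or under the floor of 3 counts in a library, so no fold and no direction were given. A level below that floor was not detectable at this depth.

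By FPKM the order of the members at D7 was Cd4 (mean 51.1), Cd8a (9.27), Nkg7 (3.28), Cd3g (2.43), Cd3d (1.5), Prf1 (1.45), Cd3e (1.07), Cd247 (0.777), Gzmb (0.12) and Cd79b (0.0221). The FPKM of Nkg7 and Cd3g overlapped between the 2 rats, as did the run from Cd3d through Prf1 and Cd3e to Cd247, and the other neighbours were apart. In the controls the order began with Cd4 (15) and Cd3g (1.71), and each neighbouring pair from Cd8a (0.243) down to Cd3e (0.0769) overlapped. At D4 Cd4 (54.1) and Cd8a (2.92) led, followed by Nkg7 (1.10) and Prf1 (0.857), which overlapped with each other. The FPKM ratio of Cd4 to Cd8a was 244 and 33.9 in the controls, 18.3 and 18.7 at D4 and 6 and 5.11 at D7.

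Other lymphocyte genes were read from 4 further lists. Beside their counts of calls, 11.2% of all genes tested were called higher and 10.7% lower at D4. At D7 these shares were 9.83% and 9.02%. Of 20 T cell receptor signalling and surface genes, 19 were measured and 15 tested. At D4, 4 rose and 1 fell (median change of the 15 tested 1.01). At D7, 5 rose and 1 fell (median 1.46). That median was the value of Themis (1.46 ± 1.13, not called), which passed the filter on low counts only through the D7 libraries. The medians over all genes tested were -0.04 and 0.01. Fyb and Lcp2, adaptors that myeloid cells also use, rose at both times, Fyb by 2.05 ± 0.14 at D4 and 1.35 ± 0.14 at D7, and Lcp2 by 1.63 ± 0.15 and 1.68 ± 0.15. Cd6, a T cell surface receptor, had 7 and 8 counts in the controls, 22 and 56 at D4 and 76 and 55 at D7, and rose by 1.82 ± 0.54 at D4 and 2.89 ± 0.53 at D7. Cd2, an adhesion receptor of T and NK cells, had 3 and 4 counts in the controls, 15 and 14 at D4 and 73 and 42 at D7. Its rise of 3.78 ± 0.51 at D7 was called (adjusted p = 0.00296). Lck, the kinase bound to CD4 and CD8, had 23 and 23 counts in the controls, 56 and 78 at D4 and 150 and 120 at D7, and rose by 2.33 ± 0.27 at D7. Prkcq, protein kinase C theta, was the gene that fell, from 3208 and 2058 counts in the controls to 623 and 916 at D4 and 1251 and 892 at D7. It held the most counts of the list, so that the list summed to 165 to 201 CPM in the controls and 127 to 154 after the crush. In the controls Prkcq averaged 37.4 FPKM and Lck 0.542 FPKM, and the cells that gave the Prkcq RNA were not tested.

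In the list on T cell lineage and state, 16 of the 19 measured genes were tested. At D4, 5 rose and none fell (median 1), and at D7, 9 rose and none fell (median 2.04). Tbx21, the factor T-bet of type 1 T cells and NK cells, was at 0 and 0 in the controls, at 12 and 18 counts at D4 and at 40 and 40 at D7, called both times (adjusted p = 0.00566 and 0.00231). Cd27, a costimulatory receptor, had 0 and 2 counts in the controls, 13 and 15 at D4 and 45 and 21 at D7. Cxcr3, a chemokine receptor of activated T cells, had 3 and 4, then 24 and 25, then 58 and 44 counts. It rose by 2.25 ± 0.46 at D4 and 3.61 ± 0.44 at D7. Tcf7, a T cell factor, had the second highest counts of the list and was called at D7, at 1.17 ± 0.24 (adjusted p = 0.0125), while at D4 its 0.97 ± 0.24 was under 2-fold, and the difference from D4 to D7 was 0.20 ± 0.23 (adjusted p = 0.64). Lef1, with the highest counts, was at -0.67 ± 0.27 and -0.33 ± 0.27 and was not called. Pdcd1 was at 0 in all libraries.

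Of the NK cell and cytotoxic genes 27 were listed, 23 measured and 15 tested. At D4, 7 rose (median 1.48, or 1.36 with the gene at 0 in the controls set to its bound), and at D7, 8 rose (median 2.39, or 2.20), and none fell. Il2rb, a chain of the receptor for interleukins 2 and 15, had 22 and 7 counts in the controls, 165 and 112 at D4 and 141 and 111 at D7. Cst7, the inhibitor cystatin F, had 5 and 0, then 45 and 53, then 45 and 23 counts. Both rose at both times, Il2rb by 2.77 ± 0.48 and 2.93 ± 0.48 and Cst7 by 3.74 ± 0.86 and 3.52 ± 0.87. Ncr1, the NK receptor NKp46, had 1 and 1 counts in the controls, 14 and 12 at D4 and 5 and 3 at D7. Its scaled counts were 9.1 times the control at D4, with a 95% counting interval from 2.28 to 79.1, and 3.47 times at D7, with an interval from 0.692 to 33.5. It was called at D4 (adjusted p = 0.0161) and not at D7 (adjusted p = 0.154), with a difference of -1.37 ± 0.56 from D4 to D7 that was not called (adjusted p = 0.201). The lectin receptor gene Klrb1b rose at D4 by 2.81 ± 0.52. Klrb1c, of the same family, had 0 and 3 counts in the controls, 16 and 19 at D4 and 7 and 10 at D7, and was called at D4 (adjusted p = 0.0462). Ncr1 and Klrb1c, 2 of the 7 genes called at D4, passed the filter on low counts only through the D4 libraries. Their D4 calls thus add no support to the count, and the D4 median includes them. Klrk1, the receptor NKG2D, had the highest counts of the list and was not called at either time (0.76 ± 0.26 and 0.63 ± 0.26).

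Of the granule and chemokine genes of this list, Ctsw, the protease cathepsin W, had 7 and 3 counts in the controls, 16 and 29 at D4 and 111 and 96 at D7, and rose by 1.63 ± 0.49 at D4 and 4.15 ± 0.46 at D7. Ccl5, a chemokine of activated T and NK cells, had 4 and 1, then 14 and 6, then 38 and 60 counts. It was called at D7 (4.05 ± 0.74, adjusted p = 0.00852) and not at D4 (1.48 ± 0.83, adjusted p = 0.195), and the difference of 2.57 ± 0.62 from D4 to D7 was not called (adjusted p = 0.0742). Gzmk, granzyme K, had 3 and 1, then 10 and 2, then 25 and 15 counts and was also called at D7 (3.06 ± 0.92, adjusted p = 0.0433), with a difference of 1.99 ± 0.77 from D4 to D7 that was not called (adjusted p = 0.183). Ccl5, Gzmk and Klrd1, 3 of the 8 genes called at D7, passed the filter on low counts only through the D7 libraries. Klrc1, which was not called, also passed only through D7. The D7 calls of Ccl5, Gzmk and Klrd1 thus add no support to the count, and the D7 median includes all 4 genes. Ifng, Klrb1 and Gzmc were at 0 in all 6 libraries.

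The B cell and plasma cell list gave 10 tested genes of 20 measured, of which 6 rose at D4 (median 2.57) and 4 rose and 1 fell at D7 (median 2.18). Outside the rule for named genes, the one that fell was Cxcr5 (-2.05 ± 0.55). Ighm (0.14 ± 0.44 at D4 and -0.14 ± 0.44 at D7), Cd72 (0.21 ± 0.39 and 0.51 ± 0.39) and Blk were tested and not called at either time. Of the genes of this list too low to test, Cd79a had at most 8 counts in a library and Pax5 at most 3, and Ms4a1 had 12 counts in control a and 0 in the other 5. Cd22 and Blnk had the highest counts among the genes that rose. Cd22, an inhibitory receptor, had 48 and 49 counts in the controls, 380 and 606 at D4 and 225 and 270 at D7, and Blnk, an adaptor that myeloid cells also use, rose by 2.32 ± 0.31 and 2.22 ± 0.31. Cr2, complement receptor 2, and Fcrla, an Fc receptor-like protein, had 0 to 5 counts in the controls, 36 to 59 at D4 and 27 to 46 at D7. Pou2af1, a B cell coactivator, had 1 and 0 counts in the controls, 37 and 42 at D4 and 4 and 6 at D7, and was called at D4 (adjusted p = 0.00243) and not at D7 (adjusted p = 0.0595), with a difference of -2.64 ± 0.54 from D4 to D7 that was not called (adjusted p = 0.053). Pou2af1 passed the filter on low counts only through the D4 libraries, so its D4 call adds no support to the count. Blk also passed only through D4, and the D4 median includes both genes. Spib, a factor of B cells and plasmacytoid dendritic cells, had 2 and 4, then 71 and 23, then 15 and 31 counts. It was called at D4 (3.43 ± 0.91, adjusted p = 0.0248) and not at D7 (2.69 ± 0.93, adjusted p = 0.0665), and the difference of -0.74 ± 0.71 from D4 to D7 was not called (adjusted p = 0.566).

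The 4 further lists had, in the order above, 15, 16, 15 and 10 tested genes. Between D4 and D7, 1.68% of all genes tested were called higher. Of the genes of these lists 4 were called, all higher at D7, and they are named here after their values were seen. They were Lck (1.32 ± 0.25, adjusted p = 0.0451), Cd2 (2.27 ± 0.43, adjusted p = 0.0446), Bcl11b (2.89 ± 0.49, adjusted p = 0.0367) and Ctsw (2.51 ± 0.38, adjusted p = 0.0301). Bcl11b, a transcription factor of the T cell lineage, had 4 and 11 counts in the controls, 11 and 16 at D4 and 83 and 79 at D7. Each of the 4 calls was lost without any one of D4 a, D4 b, D7 a or D7 b, and the adjusted p reached 0.28 for Lck, 0.263 for Cd2, 0.258 for Bcl11b and 0.221 for Ctsw.

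**Figure D4:**
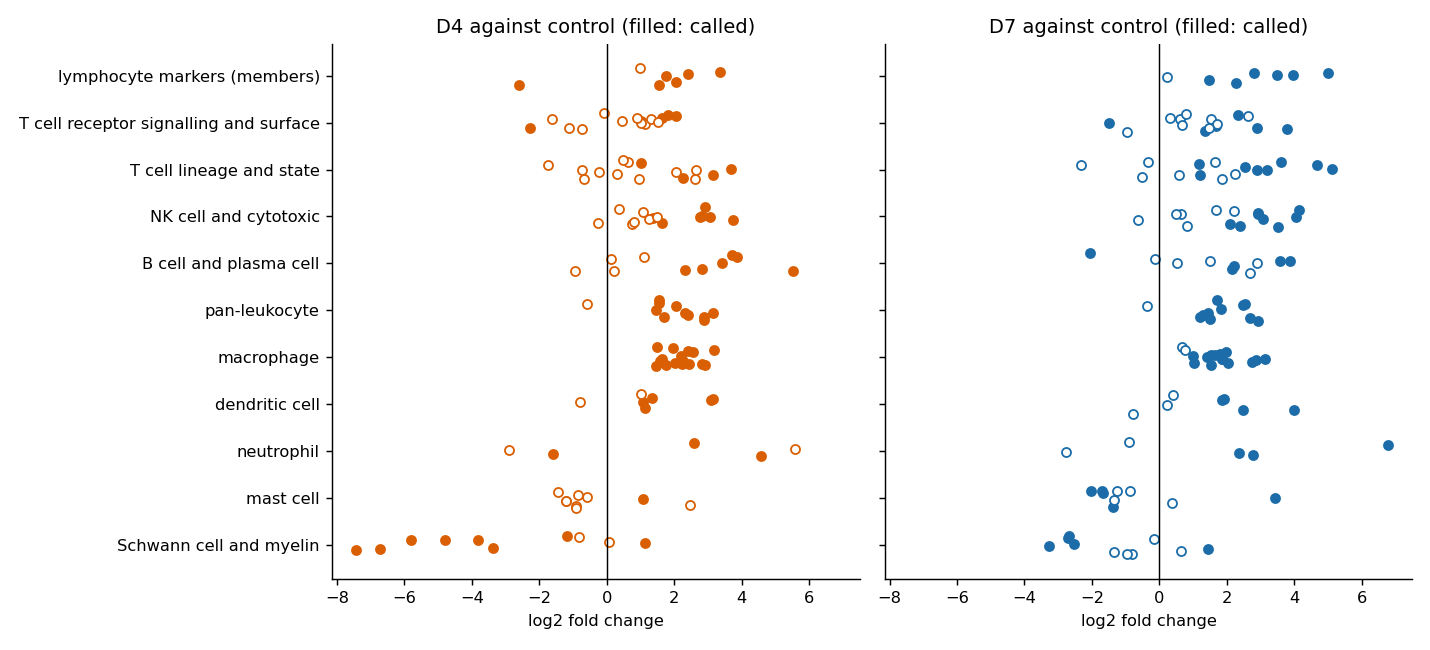
Log2 fold change against control of each tested gene with counts in the controls, by list, at D4 (left) and D7 (right); filled points were called. The points of the 16 macrophage genes lie between 1.45 and 3.17 at D4, while the lymphocyte lists spread to both sides of 0, and 7 of the 10 Schwann cell and myelin genes were called lower at D4.

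Markers of other leukocytes give the setting of these values. Of 11 tested pan-leukocyte genes 10 rose at each time, with Laptm5 at 464 to 672 counts in the controls, 2394 to 2797 at D4 and 1818 to 1854 at D7, and Cd48, the exception, at 2341 to 3688 counts throughout. Lyz2 and Mrc1, the macrophage genes with the most counts, rose by 2.26 ± 0.09 and 1.59 ± 0.12 at D4. Of 8 tested dendritic cell genes 6 rose at D4 and 5 at D7, Clec10a by 1.33 and Itgax by 3.14 at D4. Of 5 tested neutrophil genes 2 rose and 1 fell at D4 and 3 rose at D7. Csf3r was among those that rose, and Mpo, with 854 and 929 counts in the controls and 1 to 295 after the crush, was not called. Xcr1 of the dendritic cell list and Mmp8 of the neutrophil list passed the filter on low counts only through the D7 libraries. Their D7 calls thus add no support to these counts. Among all genes tested 11.2% were called higher and 10.7% lower at D4, and 9.83% higher and 9.02% lower at D7. Of 9 tested mast cell genes 1 rose at D4, Kit, and 1 rose and 4 fell at D7, Mcpt1 among those that fell. Pmp22, a myelin gene, fell by 5.81 at D4.

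For Cd3e, Cd4 and Nkg7, the genes whose pattern over the 6 libraries was most alike were in none of the lymphocyte lists. By Pearson's r of log2 CPM, Srsf3 (r = 0.9963), Rpp38 (0.9942) and Mfsd9 (0.9937) were nearest to Cd3e. Such an r ignores the size of a change. Srsf3 had 2091 and 1928 counts in the controls and 3388 and 3595 at D7, where Cd3e went from 3 and 4 to 35 and 58. Nearest to Cd4 were Itpa (0.999), Fbxl6 (0.9989) and Cd300a (0.9987), and to Nkg7 Ikbkap (0.9974), Ammecr1l (0.9967) and Xrcc6bp1 (0.9922). With 6 libraries in 3 groups such values were common: 113 genes had r above 0.95 with Cd3e, 181 with Nkg7 and 1297 with Cd4.

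Long noncoding RNAs (lncRNAs) at the members were also few in counts. Of the lncRNA transcripts, 6 overlapped a member and 9 more lay within 10 kb, and 7 of these 15 could be tested. None was called against the control by edgeR at D4 or D7, where 10.1% and 5.79% of all 14077 tested lncRNAs were called in either direction. At an unadjusted p under 0.05 there was 1 at each time. At D4 it was NONRATT021846.2, inside Cd4 at chr4:157399553-157400328, with 18 and 8 counts in the controls, 43 and 59 at D4 and 20 and 28 at D7 (1.81 ± 0.44, adjusted p = 0.0596). At D7 it was NONRATT028490.2, within 10 kb of Cd3g at chr8:49264243-49271804, with 27 and 17, then 18 and 37, then 59 and 57 counts (1.31 ± 0.40, adjusted p = 0.116). At Cd3e, NONRATT028492.2 had 29 counts in D7 b and 1 to 3 in the other 5 libraries, and in Cd8a, NONRATT020545.2 had 0 and 1, then 3 and 3, then 8 and 13 counts. The strand of the counting was not given in the sources used here, so reads of an overlapping lncRNA and its gene could not be told apart. These lncRNAs outside the rule for named genes were chosen after their values were seen.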

How the data were processed

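RNA-seq of 6 sciatic nerves, 2 rats in each of 3 groups, was used. Per the labels and the study's methods, the authors removed ribosomal RNA, mapped paired reads to Rnor_6.0 with HISAT2 2.0.4, assembled transcripts with StringTie 1.3.0 and counted fragments per gene, and they deposited these as raw count values for mRNAs and lncRNAs. The study's methods place TMM normalization before the FPKM values. For Cd4, Cd8a and Cd3g, however, the deposited FPKM followed the count over the unscaled library total, with no TMM factor. FPKM was used here to compare levels between genes. Where FPKM values of different groups stand side by side, they are not TMM-scaled as the CPM values are. The authors' own fold changes were not used. The strand setting was not given in the sources used here.

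The deposited counts were tested in R 4.3.3 with edgeR 4.0.16 (filterByExpr with a minimum count of 10, TMM, quasi-likelihood F test, 1 fit of all 6 libraries, Benjamini-Hochberg adjustment over 15195 genes). Genes with an adjusted p under 0.05 and at least a 2-fold change were called. The standard error was derived from the F statistic. The fit was tested on simulated data. DESeq2 1.42.0 and the other settings in the closing section were alternatives. Depth was 18727255 to 25350886 fragments, and a level under 3 counts in a library was treated as not detectable. Libraries of a group differed by more than sampling noise and were kept as separate rats. The letters a and b named different rats in each group and were not used as pairs.

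The members and gene lists were chosen with earlier results of these data known. Named genes were all members, and in each of the 4 other lymphocyte lists the 4 called genes with the largest change against control at each time and the 2 with the most counts. They were also the 2 with the most counts of each other list, and the 3 genes most alike to Cd3e, Cd4 and Nkg7 over the libraries (Cd79b could not be tested). Some genes that this rule or a list names are not reported here. Upstream sequences came from RefSeq on GRCr8, and the files' coordinates are on Rnor_6.0.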

Additional observations from a re-analysis of the deposited data

Results flagged for a closer look

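Cd3g was the member whose 2 effects against the same controls differed by a direct test. Its log2 change was -2.59 ± 0.43 at D4 and 0.22 ± 0.36 at D7, and the difference between them, which is the change from D4 to D7, was 2.81 ± 0.42 with an adjusted p of 0.0295 by edgeR's quasi-likelihood test. Both D7 libraries had 29 counts and both D4 libraries 5. The difference kept its direction without each library, and its adjusted p ran from 0.0376 to 0.221 over the 6 fits that left 1 out.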

How the results depend on the processing

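Of the 289 values of member changes under the alternatives, 259 kept their direction and side of the threshold, 21 lost the call, 9 gained it and 0 changed sign. With at least 10 counts required in every library, Cd4 was the 1 member left to test of 8, so that 1 was called at D4, 1 at D7 and 0 between D4 and D7. At an adjusted p under 0.01 there were 3 members called at D4 in place of 6, and 0 between D4 and D7. Leaving out 1 library gave 3 to 6 members at D4, 6 to 7 at D7 and 0 to 2 between D4 and D7, where the group left with 1 rat was assumed to vary like the others. Between D4 and D7 the count of 1 became 2 in a fit of those groups alone, 2 with DESeq2 and 4 with edgeR's exact test. No lncRNA overlapping a member was called in the main fit or, with those within 10 kb added, in the alternative.

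The letters a and b did not pair the rats: the correlation of deviations between same-lettered libraries was 0.01 for control and D4, 0.19 for control and D7 and -0.13 for D4 and D7. With the letter as a replicate block, 0 members were called between D4 and D7 (Cd3g at adjusted p = 0.0563), and with the D4 letters exchanged, an alternative chosen after seeing the data, 1 was. The block also ended all 4 calls between D4 and D7 in the other lymphocyte lists (Lck at adjusted p = 0.0785, Cd2 at 0.0744, Bcl11b at 0.0536 and Ctsw at 0.056), and took T cell lineage and state from 5 to 3 genes at D4 and the NK cell and cytotoxic list from 7 to 5. With DESeq2, 2 genes of the latter list were called between D4 and D7 in place of 1. Without TMM factors T cell lineage and state had 8 genes called at D4, the median change of all genes moved to 0.25 at D4 and 0.31 at D7, and 69.3% and 70.4% of calls were higher in place of 51.2% and 52.1%. Low counts were a limit: 9 of the 10 members had under 300 counts in every library.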
